A study of Mus musculus with 8 samples.

Results

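The 10 genes described here encode surface proteins by which an activated B cell is recognised and talks to other cells. They were taken as a fixed list, chosen with earlier results of these data known, out of 21938 protein-coding genes placed in 50 kb bins. They are the costimulatory ligands Cd80, Cd86 and Icosl, the TNF receptor family members Cd40 and Fas, the activation markers Cd69 and Cd83, the adhesion molecules Cd44 and Icam1, and the cytokine receptor chain Il2ra. For each gene the bin that holds its start was followed with the 40 bins on each side of it, a window of 2 Mb each way. Upstream and downstream below mean lower and higher chromosome coordinates, whatever the strand. For the minus-strand genes Cd86, Cd69 and Cd44 they run against the direction of transcription. All 10 start bins passed the bin filter, and each had 80 usable partner bins.

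The data are in situ Hi-C contact maps, in which each read pair records that a pair of places in the genome lay close together in a cell. Naive splenic B cells of male C57BL/6 mice were labelled with a division dye and cultured with 25 µg/ml lipopolysaccharide (LPS), a bacterial product that activates B cells through Toll-like receptor 4. There were 8 libraries, 2 in each of 4 groups: 3 h, 10 h, 33 h in undivided cells (imminent division), and 33 h in undivided cells gated as being ahead of S phase (pre-S). C57BL/6 FUCCI mice gave the pre-S cells (the methods give the background of all mice as C57BL/6 Pep3b), and their fluorescent reporters mark the cell cycle phase, so strain, gate and group cannot be told apart. The study's methods state biological duplicates. By the same methods the sort of activated cells used CD69 on the cell surface, so the product of a gene described here was part of the gate; Hi-C itself measures no RNA or protein.

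On the B cell surface CD80 and CD86 are the ligands of CD28 and CTLA-4 on T cells, and ICOSL is the ligand of ICOS. CD40 receives help from CD40L on T cells, and FAS is a death receptor. CD69 is an early marker that retains lymphocytes in tissue, CD83 marks activated B and dendritic cells, CD44 binds hyaluronan, ICAM1 binds LFA-1, and CD25, the product of Il2ra, is the alpha chain of the interleukin-2 receptor. Hi-C reads how far the region around such a gene contacts other places, whether it lies in the open A compartment or the closed B compartment, and how strongly its surroundings are divided into contact domains.

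The libraries held 88703088 to 218945191 read pairs, with 70.9% to 75.1% of the autosomal pairs within a chromosome. The second imminent division library stood apart on the sex chromosomes, with 3.74% of its read ends on X against 2.39% to 2.84% in the other 7, and 0.0490% on Y against 0.0804% to 0.123%. All tests below use autosomes only. The start bins of the 6 B cell genes reported here, among them Cd79a and Pax5, lay in the A compartment in every library, but so did those of 6 T cell and 5 myeloid genes. Of 4 neuronal genes 3 lay in B in every library, and the compartment sign did not separate B cell genes from those of other blood cells.

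The start bins of the 10 genes differ in their surroundings. Cd83 lies on chromosome 13 (GRCm38 chr13:43784775-43803132, plus strand) in a gene-poor stretch with 17 gene starts in its 4 Mb window. Icosl has 121 gene starts in its window and Icam1 has 108. Cd80 and Cd86 lie 1800 kb apart on chromosome 16, so each is in the other's window. Cd40, Cd44 and Il2ra lie on chromosome 2, far from each other, and Cd69 lies within the cluster of Clec2 and Klrb1 receptor genes on chromosome 6 (chr6:129267325-129275436, minus strand).

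CTCF, the protein at which loops and domain borders often end, binds a known core motif. The core motif was searched on both strands of GRCm38, and 20.5% of all kept bins and 30.4% of bins with a gene start held a match. Of the 10 start bins, 2 held one, those of Cd40 and Cd69. The sites shown are the matches in those bins and in the partner bins of Cd83 and Icam1 whose contacts changed, each as 30 bases of the plus strand with the match in capitals.
Cd40 start bin, chr2:165070558-165070587: ttcatgtgtCCAGCAGGGGGCagaaggcat
Cd40 start bin, chr2:165075093-165075122: tgatagtggCCAGCAGGTGGCagcaaggta
Cd40 start bin, chr2:165078799-165078828: gcaggcgggCCAGCAGGGGGCgggcagcgg
Cd69 start bin, chr6:129255152-129255181: tttcatagcGCCATCTGCTGGaaaattagt
Cd83 partner 400 kb away, chr13:44153973-44154002: taaaacagcGCCACCTGCTGGagactatgt
Cd83 partner 1200 kb away, chr13:44977983-44978012: gattagactGCCCTCTAGTGGaaattcaag
Icam1 partner 100 kb away, chr9:21137404-21137433: ctcactcctGCCCTCTGGTGGatagacact
Icam1 partner 400 kb away, chr9:21417107-21417136: cagtgacagGCCCTCTAGTGGaggaggcca
The 3 matches at Cd40 read in the plus direction, and the others shown read in the minus direction. Changed partners of Cd40 and Cd44 also held matches, in both directions, which are not shown. They are matches of letters, and binding was not measured.

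The first comparison, 10 h versus 3 h, asks what changes early after activation. Contacts of a start bin were counted as near (50 to 500 kb) and far (550 kb to 2 Mb), as read pairs normalised with a loess curve per library and tested with edgeR. The far contacts of Cd83 were 1110 and 1075 normalised read pairs at 3 h and 1353 and 1351 at 10 h. Both 10 h libraries lay above both 3 h libraries, a rise of 0.31 ± 0.06 (log2, SE), or 1.24-fold, with an adjusted p of 0.00474. The far contacts of Icam1 were 392 and 423 at 3 h and 507 and 525 at 10 h, a rise of 0.33 ± 0.08 (adjusted p = 0.0303). Of the 13084 start bins tested 1.15% rose in far contacts between these times, beside 2 of the 10 genes.

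The far contacts of Il2ra were 296 and 283 at 3 h and 349 and 363 at 10 h, a difference of 0.31 ± 0.09 that did not pass (adjusted p = 0.0703). Cd40 and Icosl likewise had higher values at 10 h in both libraries, by 0.25 ± 0.08 and 0.26 ± 0.10, without passing. Fas went the other way, from 726 and 810 at 3 h to 690 and 700 at 10 h (-0.16 ± 0.07, adjusted p = 0.22), and Cd80 and Cd86 also had values below 0. Over the 10 genes the median difference was 0.21, beside a median of -0.00282 over all start bins. The Cd83 call was lost without either 10 h library (adjusted p = 0.09 and 0.166) or the second 3 h library (0.0976). The Icam1 call was lost without the same 3 libraries (0.155, 0.348 and 0.12), and also with TMM factors (0.0516), over all autosomal bins (0.0563) or with the bin's own diagonal count added (0.531).

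**Figure D1:**
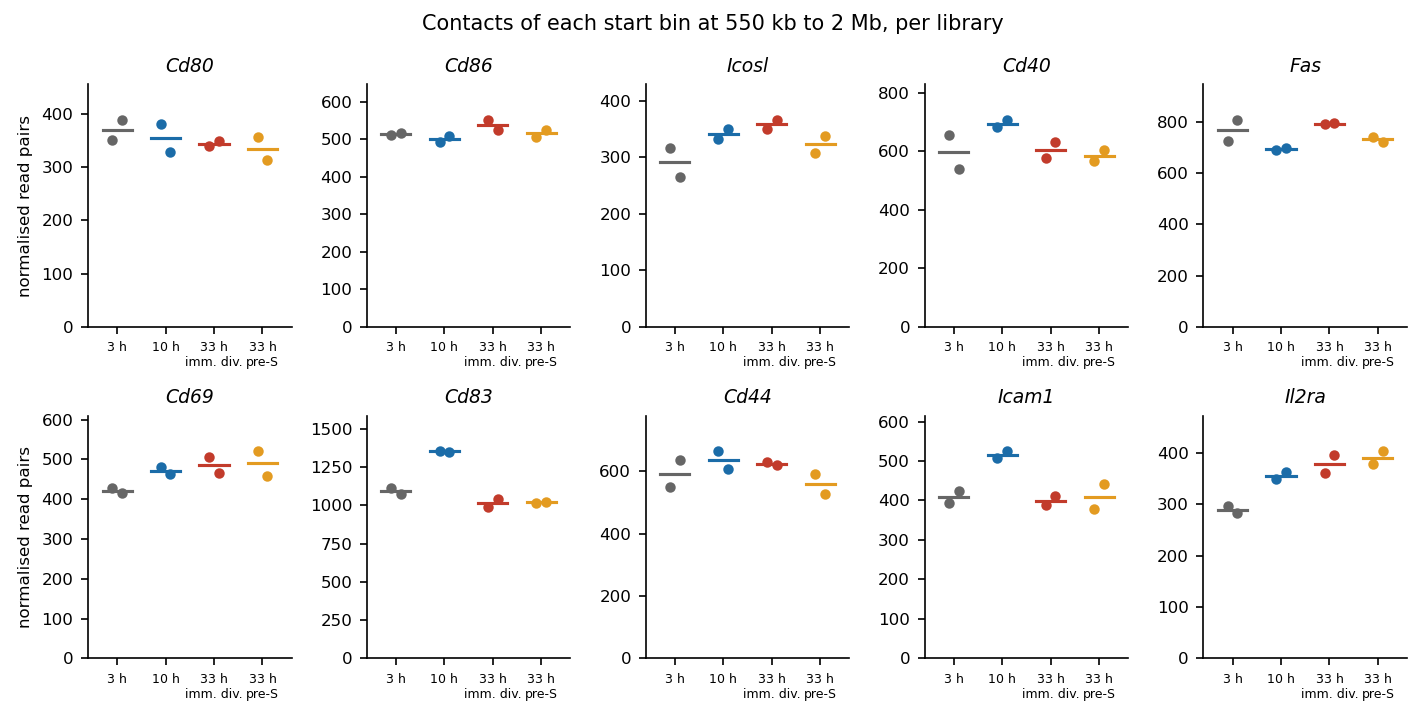
Far contacts of the 10 start bins (normalised read pairs at 550 kb to 2 Mb, vertical axis from 0) in each of the 8 libraries, by group, with a bar at the mean of each group. Cd83 and Icam1 are highest in both 10 h libraries, and Il2ra is lowest in both 3 h libraries.

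None of the 501 bin pairs tested at the 10 start bins was a differential interaction between 3 h and 10 h, where 0.00114% of all bin pairs up to 2 Mb with a gene start were stronger and 0% weaker. At an unadjusted p under 0.05 there were 60 of the 501, beside 86509 of all 1458577 bin pairs tested. Among the 60 were 17 of 53 at Cd83 and 9 of 41 at Icam1. DESeq2 called 0, while the bin coverage in the offsets gave 5 stronger pairs, 3 of them at Cd83. With 8-fold the background or offsets per distance class there was 1, at Cd83. The share of all bin pairs called in these alternatives is not given, so these counts cannot be set against the genome. In edgeR and limma no gene passed for summed contacts within 2 Mb (0.0678% of all start bins did), near contacts (0.446%), compartment (5.38% of all 100 kb bins) or insulation (0.19% of all bins). An unadjusted p under 0.05 was reached by 2, 1, 0 and 2 of the 10 genes in these measures. Over all features it was reached by 1588 of 13274, 1621 of 13240, 4504 of 23789 and 5900 of 46781. DESeq2 called 1 gene for summed and 0 for near contacts.

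The next comparisons set each 33 h group against 10 h, and share the 10 h libraries. Cd83 lost contacts in both. Its far contacts fell from 1353 and 1351 at 10 h to 987 and 1042 at imminent division and to 1017 and 1024 at pre-S. The changes were -0.41 ± 0.05 (adjusted p = 2.9e-07) and -0.41 ± 0.06 (adjusted p = 9.02e-06), the first a level 1.33-fold lower. All 4 libraries of the 33 h groups lay below both 10 h libraries, and below the 1075 of the lower 3 h library. Far contacts fell at 26% of all start bins at imminent division and at 17.7% at pre-S, where 3 of the 10 genes fell in each.

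The near contacts of Cd83 were 1973 and 1907 at 10 h, 1764 and 1671 at imminent division, but 1576 and 1572 in the pre-S libraries. The falls were -0.18 ± 0.04 and -0.30 ± 0.05 (adjusted p = 0.00128 and 2.48e-05), where near contacts fell at 19.3% and 14.5% of start bins. The fall in near contacts at imminent division was lost with the bin coverage in the offsets (adjusted p = 0.36). Far contacts made up 34.4% to 42.6% of the contacts of Cd83 within 2 Mb in the 8 libraries, the highest share of the 10 genes. The median over all start bins was 26.9% to 29.4%. At Cd83 the share was 40.6% and 42.6% at 10 h and 41.2% and 41.3% at pre-S. It was 34.4% and 36.9% at imminent division and 37.0% and 35.8% at 3 h.

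The partner bins show where the Cd83 contacts lie. The 2 partners with the highest observed over expected contacts (the count divided by the mean count of the chromosome at that distance) were 1000 and 1050 kb downstream, over Jarid2, which encodes a subunit of a chromatin-silencing complex. At 1000 kb the ratio was 9.69 and 11.5 in the 10 h libraries. It was 6.39 and 7.02 in those of 3 h, 5.66 and 5.92 in those of imminent division, and 6.49 and 6.06 in those of pre-S. At this partner the 10 h libraries were the highest, and the 3 h and 33 h libraries lay close together. At 1050 kb the 3 h libraries, at 7.39 and 7.49, lay below the 9.82 and 10.1 of 10 h. They lay above the 5.20 and 5.36 of imminent division and the 6.74 and 5.68 of pre-S.

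Of the 53 tested partners of Cd83, 14 were weaker at imminent division than at 10 h and none was stronger, where 2.66% of bin pairs with a gene start were weaker. The smallest p was at 750 kb downstream, where normalised counts were 122 and 105 at 10 h and 36.0 and 54.9 at imminent division, a change of -1.28 ± 0.17 (edgeR, adjusted p = 1.25e-08). The 3 h libraries had 114 and 79.5 there, also above those of imminent division. Of the 14, 13 lay 400 to 1200 kb downstream, and the other, 600 kb upstream, holds the start of Tbc1d7. The 14 share a start bin and most are neighbouring bins, so they are not separate events. The share of start bins with as many weaker partners was not counted. At pre-S 8 of the 53 were weaker, where 0.389% of bin pairs with a gene start were, all of them 50 to 1150 kb downstream. The partner at 750 kb was again the one with the smallest p, with 58.3 and 63.4 at pre-S, a change of -0.89 ± 0.19 (adjusted p = 0.00297).

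The count of 14 went to 8 without the first 10 h library, 5 without the second, 9 without the second imminent division library, 8 with offsets per distance class and 4 with DESeq2. At pre-S the count of 8 went to 0 without the first 10 h library, to 1 without the second, to 1 and 2 without the first and second pre-S libraries, and to 0 with DESeq2. In the test of imminent division against pre-S no partner of Cd83 passed. An unadjusted p under 0.05 was reached by 7 of its 53, beside 144521 of all 1458577 bin pairs tested.

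**Figure D2:**
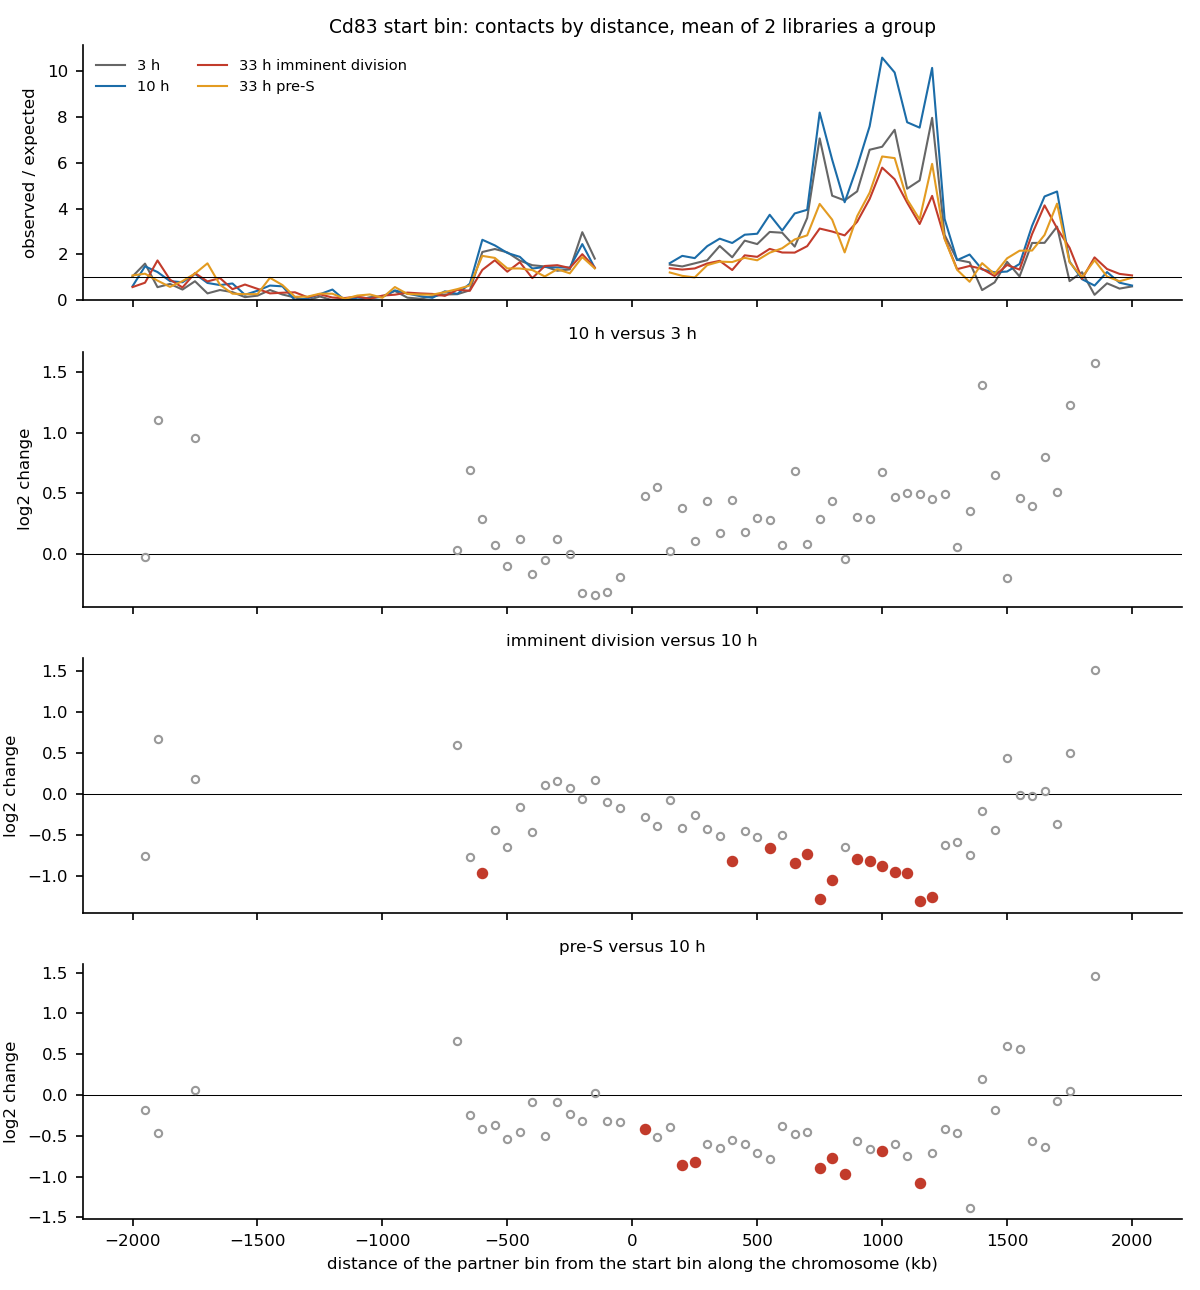
Contacts of the Cd83 start bin by distance to the partner bin (kb along the chromosome, 0 at the start bin), as observed over expected in the mean of each group's 2 libraries (top), and the log2 change in each tested bin pair for 3 comparisons, with differential interactions in filled red circles and the others open. Values are highest 750 to 1200 kb downstream, where the 10 h line lies above the others in most bins, and all but 1 of the red points lie downstream.

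The boundary ratio sets the contacts of a 100 kb region with the 1 Mb upstream against those with the 1 Mb downstream. At Cd83 its log2 value was -0.43 and -0.45 at 3 h and -0.71 and -0.80 at 10 h, so that downstream contacts became more dominant, by 0.31 ± 0.05 in the size of the ratio (adjusted p = 0.0173, where 0.202% of all regions strengthened). The comparisons with the 33 h groups use the same 10 h libraries, and no 33 h group was tested against 3 h. From those 10 h values the ratio went to -0.346 and -0.345 at imminent division and to -0.40 and -0.32 at pre-S. The size fell by 0.41 ± 0.05 (adjusted p = 3.27e-08) and by 0.40 ± 0.05 (adjusted p = 3.6e-05), where 13.7% and 2.91% of all regions weakened, and 21.8% and 4.72% of regions with a gene start. The strengthening at 10 h was lost without the second 10 h library (adjusted p = 0.417) or without either 3 h library.

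The far contacts of Icam1, too, were highest at 10 h. From 507 and 525 at 10 h they went to 389 and 410 at imminent division and, in the other 33 h group, to 378 and 442, with changes of -0.37 ± 0.07 (adjusted p = 0.000115) and -0.34 ± 0.08 (adjusted p = 0.00193). The near contacts of Icam1 were 2385 and 2395 at 10 h and 2302 and 2199 at imminent division, and did not pass. At imminent division 4 of its 41 tested partners were weaker and none was stronger. These 4 partners, 400 to 1100 kb downstream, hold the starts of Angptl8, of Elof1 and Acp5, of Timm29 and Yipf2, and of Qtrt1 and Dnm2. The count of 4 went to 0 with DESeq2, with the bin coverage in the offsets, with offsets per distance class, and without the second 10 h or the first imminent division library, and to 1 without the other library of either group. At pre-S 1 partner was weaker, 100 kb downstream, where Tyk2 starts, a kinase of cytokine receptors (343 and 381 at 10 h, 276 and 287 at pre-S), a call lost in the same alternatives and without any 10 h or pre-S library. The far fall at pre-S was lost without the first pre-S library (adjusted p = 0.127).

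The far contacts of Cd40 were 681 and 708 at 10 h, fell to 577 and 633 by imminent division, and stood at 568 and 603 in the pre-S libraries. The changes were -0.20 ± 0.07 and -0.25 ± 0.08 (adjusted p = 0.0187 and 0.0122). At imminent division 3 of the 65 tested partners of Cd40 were weaker, at 50 kb upstream (the start of Ncoa5), 150 kb upstream (Zfp335 and Mmp9) and 1000 kb downstream, of which DESeq2 and the fit without the second 10 h library called 0. At pre-S none passed, though the partner 50 kb upstream was also lower (316 and 339 against 409 and 413 at 10 h). Both far calls were lost with DESeq2 (adjusted p = 0.0862 and 0.0588), with the bin coverage in the offsets (0.236 and 0.624) and without the second 10 h library, the first also without the first imminent division library (adjusted p = 0.207) and the second without the first pre-S library (0.179).

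Cd69 changed in the opposite way close by. Its near contacts were 2513 and 2491 at 10 h and 2875 and 2859 at imminent division, a rise of 0.20 ± 0.04 (adjusted p = 0.000197) with the loess curve, but -0.067 with TMM factors in place of the curve and 0.044 (adjusted p = 0.62) with the study's interaction filter. Near contacts rose at 19.4% of all start bins. Further upstream in the genome, 4 of the 42 tested partners of Cd69 were weaker at imminent division, where 2.66% of bin pairs with a gene start were. They lay 500 to 650 kb away, in a row of bins that hold the starts of Klrb1c, Klrb1, Clec2h and Klrb1a. At 500 kb normalised counts were 183 and 171 at 10 h and 127 and 134 at imminent division, with both later libraries lower. None of the 4 was called with DESeq2, with offsets per distance class or without the second 10 h library, and 1 or 2 were without the first 10 h or either imminent division library. The boundary ratio of the Cd69 region was 1.56 and 1.54 at 10 h and 1.13 and 1.18 at imminent division, a fall of 0.39 ± 0.05 in its size (adjusted p = 6.04e-07). At pre-S it was 1.46 and 1.35, which did not pass (adjusted p = 0.746). At 450 kb upstream, where Klrb1b starts, the ratio of observed to expected contacts was the highest of any partner of the 10 genes from 150 kb outwards in the mean of the libraries, from 8.22 to 13.8 in the 8 of them.

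**Figure D3:**
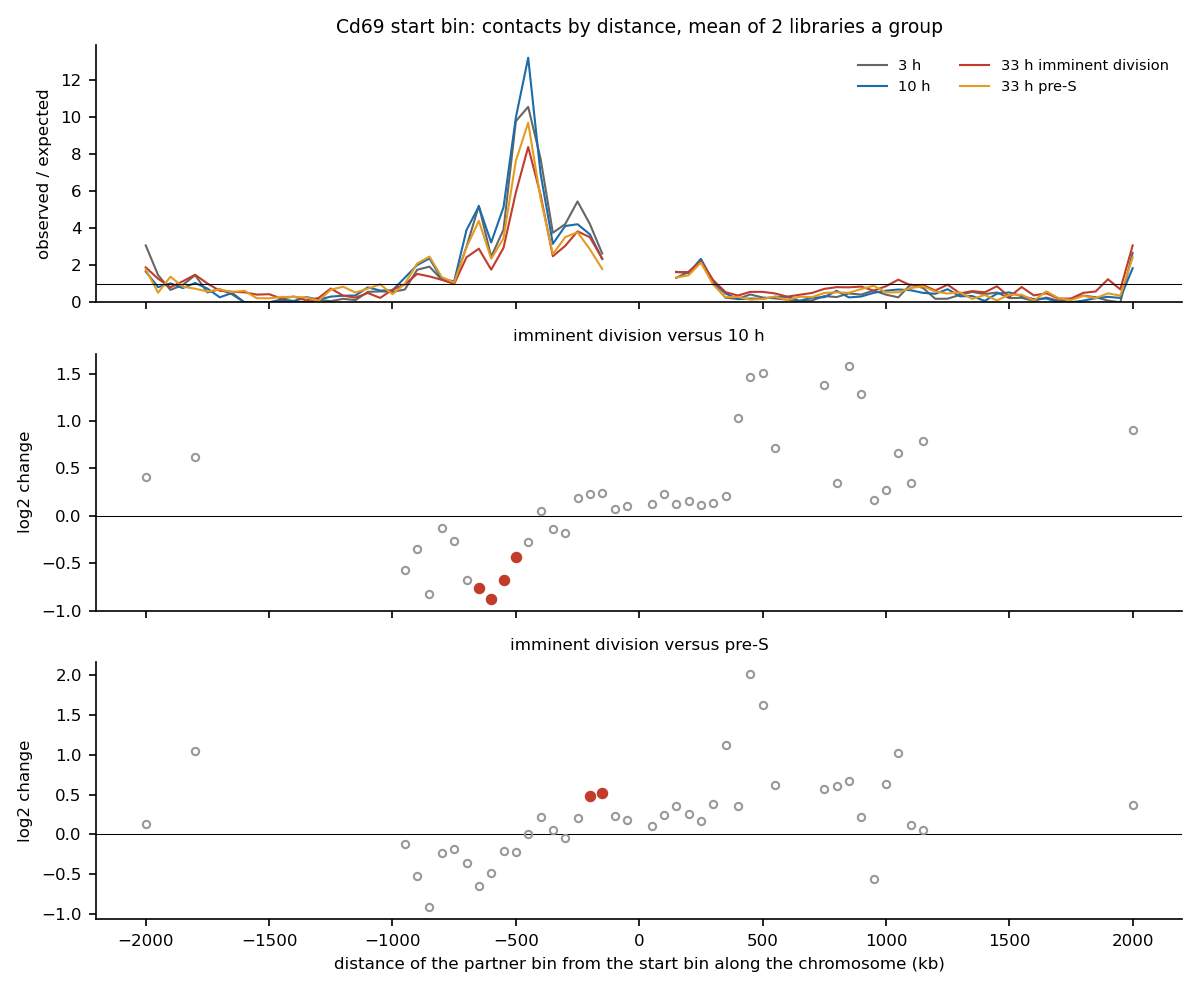
Contacts of the Cd69 start bin by distance (kb along the chromosome), as observed over expected in the mean of each group's 2 libraries (top), and the log2 change in each tested bin pair at imminent division versus 10 h and versus pre-S, with differential interactions in filled red circles and the others open. The red points 500 to 650 kb upstream are below 0 in the first comparison, and those at 150 and 200 kb upstream are above 0 in the second.

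Fas rose in summed contacts at imminent division, from 2553 and 2568 to 2835 and 2830 normalised read pairs, by 0.15 ± 0.04 with the loess curve (adjusted p = 0.00587) but had a value of -0.0080 with TMM factors. Its far contacts rose by 0.19 ± 0.06 (adjusted p = 0.0108), where those of 25.4% of start bins rose. Both Fas calls were lost without either 10 h library and with the bin coverage in the offsets (adjusted p = 0.213 and 0.109). The far call was also lost with DESeq2 (0.0514), over all autosomal bins (0.11, adjusted p = 0.205) and with TMM factors (0.08, adjusted p = 0.303), and the summed call with the study's interaction filter (0.0598). No partner of Fas, Il2ra, Icosl or Cd80 was a differential interaction with the loess offsets and all libraries. TMM factors called 1, 3, 5 and 2 of them at imminent division (0, 2, 3 and 0 for pre-S), and other alternatives at most 2 at any of these genes. The share of all bin pairs called with TMM factors is not given. Icosl fell in near contacts at imminent division, from 2200 and 2039 to 1901 and 1922 (-0.15 ± 0.04, adjusted p = 0.00611, or 0.171 without the first 10 h library), and its boundary ratio moved from -1.65 and -1.64 to -1.22 and -1.31 (adjusted p = 4.78e-05), while the -1.61 and -1.39 of pre-S did not pass (0.773). Cd86 fell in near contacts by -0.12 ± 0.05 (adjusted p = 0.0352), a call lost without any one of the 4 libraries compared. Of its 49 tested partners 1 was weaker, 900 kb upstream in the genome, where Dirc2 and Hspbap1 start (29.9 and 23.7 normalised counts at 10 h, 16.2 and 8.10 at imminent division, -1.14 ± 0.32, adjusted p = 0.0272), a call lost with DESeq2 and without either 10 h library.

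Cd44 had 3 partners that changed at imminent division, where 0.779% of bin pairs with a gene start were stronger and 2.66% weaker. The bins that hold Rag1 and Rag2 (1300 kb upstream in the genome) and Lmo2 (1050 kb downstream in the genome) were weaker. A bin 1750 kb downstream in the genome was stronger, at 2.28 and 4.33 normalised counts at 10 h and 11.1 and 13.7 at imminent division. Of its 57 tested partners DESeq2 called 0, as did the fit without the second 10 h or the first imminent division library, and the stronger call was lost with TMM factors, the bin coverage in the offsets or another abundance filter. Rag1 and Rag2 encode the recombinase of antigen receptor genes, and Lmo2 a transcriptional cofactor. At pre-S 1 partner, 1000 kb downstream, was weaker (32.3 and 30.3 normalised counts at 10 h, 7.95 and 11.9 at pre-S), a call lost with DESeq2, with the bin coverage in the offsets and without any 10 h or pre-S library.

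Across the 10 genes 29 bin pairs changed at imminent division, 1 stronger and 28 weaker, and 10 at pre-S, all weaker. Of all bin pairs with a gene start 0.779% were stronger and 2.66% weaker at imminent division, while at pre-S 0.155% were stronger and 0.389% weaker. Cd83 held 14 of the 29 and 8 of the 10. Among the 448 bin pairs of the other genes 14 were weaker at imminent division, or 3.12%, a share near that of all bin pairs with a gene start. Without the second imminent division library, which stood apart on the sex chromosomes, 15 changed at imminent division. Without the second 10 h library 5 did, with DESeq2 4 and with offsets per distance class 11, and at pre-S the count went to 0 with DESeq2 or without the first 10 h library. Over all 501 bin pairs at the 10 genes the median change was -0.14 at imminent division and -0.21 at pre-S, beside -0.07 and -0.09 over all bin pairs with a gene start. In summed contacts within 2 Mb, 2 genes rose and 4 fell at imminent division, where 22.2% of start bins rose and 21.9% fell. Both rises, of Fas and Cd69, had values below 0 with TMM factors (-0.0080 and -0.030), and Cd69 also with the study's interaction filter (-0.0058). With the bin coverage in the offsets Icam1 was at 0.0055 and Cd40 at -0.0071. Without the second imminent division library the falls of Icosl (adjusted p = 0.0745) and Icam1 (0.112) were lost. The 6 calls went to 3 without the first 10 h library, 2 without the second and 4 without the first imminent division library. The fall of Cd83 was lost with the bin coverage (-0.11, adjusted p = 0.0773), that of Icosl with DESeq2 (0.0542), and the rise of Cd69 without the second 10 h library (0.0587). At pre-S, Cd83 alone of the 10 passed, and fell, where 18.1% of start bins fell.

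Cd80 and Cd86 are neighbours as well as relatives, and the contact between their start bins could be read directly. The 3 h libraries held 9 and 13 such read pairs, the 10 h libraries 8 and 11, the imminent division libraries 20 and 18, and the pre-S libraries 17 and 8. Divided by the expected count, it was 2.00 to 2.05 at 10 h and 1.98 to 3.65 over the other 6 libraries, above 1 in all 8. In the mean of all 8 libraries it was the highest ratio of any partner of Cd86 from 150 kb outwards, though at 10 h and at pre-S the partner 750 kb upstream (Parp9 and Dtx3l) was higher. No comparison passed, and the change of 0.54 at imminent division had an adjusted p of 0.552. With so few read pairs a change could have been missed, and the smallest size that could be detected was not tested.

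The insulation score was the mean count between the 10 bins before and the 10 bins after a start bin, on a log2 scale relative to the chromosome, so a lower score means fewer contacts across the gene. It was lower in all 4 libraries of the 33 h groups than in both 10 h libraries at all 10 genes. How many other bins did the same was not counted, and a fall was common at gene starts. The median change over bins with a gene start was -0.17 in both comparisons with 10 h, beside -0.32 and -0.35 over the 10 genes. The score fell at 8 genes at imminent division and at 9 at pre-S (limma), where 29.4% and 29.9% of all bins fell, and 50.8% and 52% of bins with a gene start did. At imminent division Icam1 had the largest fall, from 0.96 and 1.00 at 10 h to 0.22 and 0.23 at imminent division (-0.76 ± 0.08, adjusted p = 2.3e-05), while at pre-S, at 0.40 and 0.59, it fell by less than Il2ra and Icosl. Il2ra went from 0.95 and 1.02 to 0.35 and 0.55 (-0.53 ± 0.08, adjusted p = 0.000115), and Icosl from 1.27 and 1.195 to 0.55 and 0.71 (-0.60 ± 0.08, adjusted p = 5.79e-05).

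Without the first imminent division library 5 genes fell at imminent division, with the calls of Cd86 (adjusted p = 0.286), Cd83 (0.143) and Cd44 (0.104) lost. The call of Cd86 was also lost without either 10 h or either pre-S library, as was that of Cd83 without the second (0.0699) and of Cd44 without the first (0.0593), and at pre-S that of Cd86 without the first 10 h (0.0621) or the second pre-S library (0.0508). Fas passed in neither comparison, and Cd69 did not pass at imminent division (-0.15 ± 0.06, adjusted p = 0.0508). With quantile normalization of the scores 4 falls turned, those of Cd86 (0.13), Cd83 (0.024) and Cd44 (0.17) at imminent division and of Cd44 at pre-S (0.015), that of Cd44 at imminent division to a called rise (adjusted p = 0.0162). The falls of Cd40 in both comparisons (adjusted p = 0.219 and 0.121) and of Cd86 at pre-S (0.471) were lost. After the mean score of the bins within 1 Mb was subtracted, an alternative chosen after the data were seen, Cd40 and Cd44 no longer passed in either comparison, and Cd83 passed in neither, at 0.057 at imminent division. Icam1, Il2ra, Icosl and Cd80 still fell in both, where 27.3% and 19.8% of all bins did, and 41.9% and 31.7% of bins with a gene start.

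**Figure D4:**
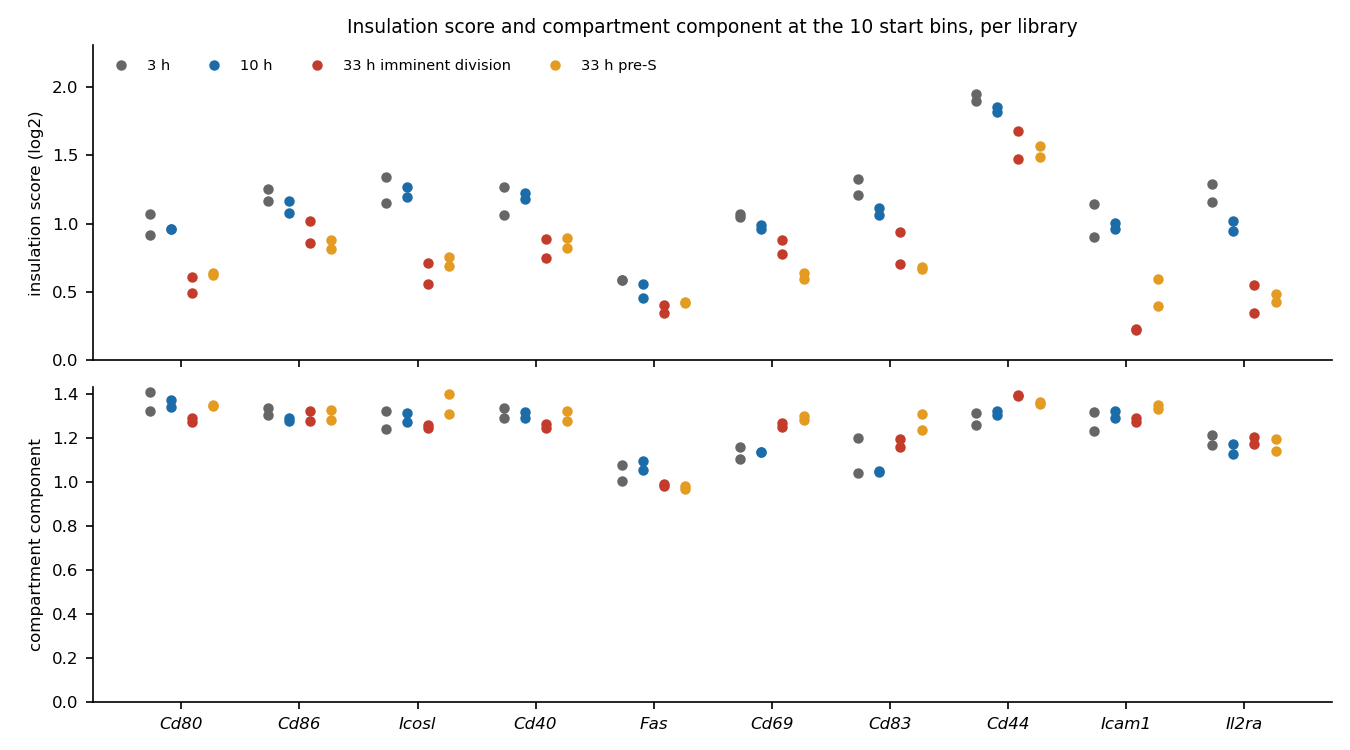
Insulation score (log2, top) and compartment component (bottom; above 0 is compartment A) of the 10 start bins in each library, coloured by group. Both 33 h groups lie below 10 h in insulation at every gene. The score fell at 50.8% (imminent division) and 52% (pre-S) of all bins with a gene start. All compartment values lie between 0.97 and 1.41.

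All 10 genes lay in the A compartment in all 8 libraries, beside 45.9% of 100 kb bins in the genome, with or without a gene. So did the 6 T cell and 5 myeloid genes read above, and the share among bins with a gene start is not given. No gene changed compartment. The component of Cd69 rose from 1.14 and 1.14 at 10 h to 1.27 and 1.25 at imminent division and to 1.28 and 1.30 at pre-S (0.12 ± 0.03 and 0.15 ± 0.03, limma adjusted p = 0.00482 and 0.00199). That of Cd83 rose from 1.05 and 1.05 to 1.20 and 1.16, and to 1.24 and 1.31 (adjusted p = 0.0462 and 0.00424). Fas fell from 1.097 and 1.05 to 0.98 and 0.99, and to 0.98 and 0.97. The component rose at 3 genes and fell at 1 at imminent division, where 13.7% and 15.8% of all bins did, and rose at 2 and fell at 1 at pre-S, where 10.8% and 13.1% did. Of 9922 bins of 100 kb with a gene start, 1325 rose and 2040 fell at imminent division, and 1222 rose and 1684 fell at pre-S. The calls of Fas, Cd83 and Cd44 at imminent division were lost without any one of the 4 libraries compared, as was that of Fas at pre-S. In bins of 250 kb the value of Cd69 was -0.015 at imminent division and 0.023 at pre-S (adjusted p = 0.272), and that of Fas at imminent division -0.013 (adjusted p = 0.619), so that these calls were lost.

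The last comparison sets imminent division against pre-S, and is also the test of whether the change from 10 h differs between the 33 h groups. It passed for 2 bin pairs and 1 insulation score, all at Cd69. Of all bin pairs with a gene start 0.153% were stronger and 0.199% weaker. The partner of Cd69 150 kb upstream in the genome, where Clec2e starts, had 154 and 165 normalised counts at imminent division against 113 and 109 at pre-S, a difference of 0.52 ± 0.14 (adjusted p = 0.0401). The partner at 200 kb had 194 and 189 against 137 and 138, a difference of 0.48 ± 0.12 (adjusted p = 0.0437). With DESeq2, TMM factors or offsets per distance class no partner of Cd69 passed here. With the bin coverage in the offsets 3 were weaker and none stronger, and the share of all bin pairs called with it is not given. The insulation score of Cd69 was 0.77 and 0.88 at imminent division against 0.64 and 0.59 at pre-S (0.21 ± 0.06, adjusted p = 0.0453), where 6.95% of all bins rose. This call was lost without any one of the 10 h and 33 h libraries (adjusted p of 0.0586 to 0.269) and with 1 Mb on each side of the bin (0.253). In edgeR and limma no gene passed for summed, near or far contacts, for the compartment or for the boundary ratio, where 4.02%, 10.2%, 8.38%, 17.7% and 5.55% of all features did. At an unadjusted p under 0.05 there were 1, 2, 1, 1 and 2 genes. Over all features there were 2878 of 13274, 3387 of 13240, 3170 of 13084, 7301 of 23789 and 3211 of 23296. DESeq2 called 0 of the 10 genes for the 3 contact sums.

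**Figure D5:**
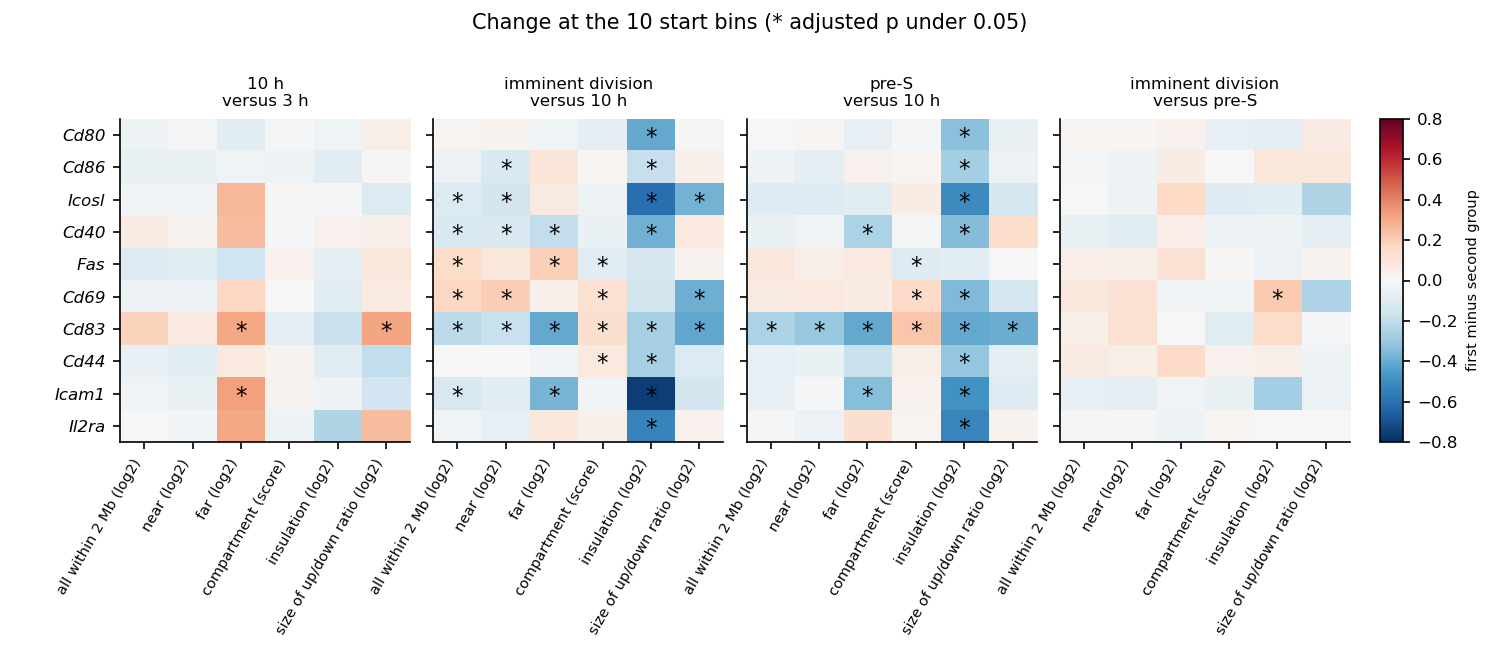
Differences at the 10 start bins in 6 measures (columns; first minus second group, on a log2 scale except the compartment component) for the 4 comparisons, with red for higher, blue for lower and an asterisk where the adjusted p is under 0.05. The insulation column is blue at every gene in both comparisons with 10 h, where 50.8% and 52% of bins with a gene start fell. Cd83 has an asterisk in all 6 columns of both. These columns are not independent, as they use the same read pairs in part, and both comparisons share the 10 h libraries. At imminent division its compartment and insulation calls were lost under some alternatives.

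Genes that work with these 10 were read from 3 lists, and values are given for genes among the 3 with the smallest p in a list and comparison. Of all start bins 22.2% rose and 21.9% fell in summed contacts at imminent division, and 19.2% rose and 18.1% fell at pre-S. Of 13 partner genes (receptors and ligands such as Ctla4, Icos, Itgb2 and Il2rb), 5 rose and 4 fell in summed contacts at imminent division, and 4 rose and 2 fell at pre-S. The Il2 start bin rose by 0.28 at imminent division and that of Ctla4 by 0.18 at pre-S. Il2rb, which joins Il2ra in the interleukin-2 receptor, fell by -0.23 and -0.27. Itgb2, a chain of LFA-1, fell by -0.24 and -0.16. Of 25 start bins of other B cell surface genes, 5 rose and 12 fell at imminent division, and 3 rose and 8 fell at pre-S, with Il4ra at -0.42 and -0.30 and Cd22 at -0.32 and -0.25. Of 13 signalling genes none rose and 4 fell at imminent division, and 1 rose and 3 fell at pre-S. Traf2, an adaptor of CD40, fell by -0.27 and -0.31, and Fadd, an adaptor of FAS, by -0.21 and -0.23. These lists were chosen with earlier results known, and their median changes lay between -0.08 and 0.02 at imminent division, beside 0.00 over all start bins.

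As a description, the start bins whose summed contacts followed each gene most closely over the 8 libraries were found. For Cd83 these were a bin with Rassf1, Hyal1 and 5 other starts (r = 0.99), one with Srebf2 and one with Rplp2. For Cd86 they were the bins of Traf6, Pdcd1lg2 and Ets1 (r = 0.96 each), and for Icam1 those of Cdk20, Chd4 and Lyl1. Among the 10 genes, Cd80 and Cd44 followed each other most (r = 0.86), and Cd40 and Cd69 ran most opposite (r = -0.92). These correlations are over 8 libraries that share depth and group, and are given without a test.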

How the data were processed

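The deposited files hold 1 matrix a library of raw counts, the read pairs joining each pair of 50 kb bins, which the authors made by aligning to mm10 with diffHic and removing duplicates and artefacts. Bins were rebuilt from MboI fragments of GRCm38 (53357 bins), genes placed with GENCODE vM21, and 47332 autosomal bins kept. The ENCODE list of excluded regions was not used here. Bin pairs (1458577, over 4-fold the background) and contact sums went into edgeR 4.0.16 (R 4.3.3), with loess offsets and quasi-likelihood fits over all 8 libraries. Compartment and insulation used limma 3.58.1, and the boundary ratio edgeR with a fold threshold of 1.1. P-values were adjusted (Benjamini-Hochberg) over all features, and calls use an FDR of 5%. The tests were checked on simulated data, in which 74.5% of 200 bin pairs given a 4-fold change were called. For the boundary ratio, with a smaller change, it was 77% of 200 regions.

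Named partners were the 2 with the highest observed over expected contacts from 150 kb outwards and the pair with the smallest p in each comparison, with other called pairs named too. The genes and lists were chosen with earlier results of these data known. Replicate numbers were not treated as pairs: same-numbered libraries did not deviate together in every pair of groups. With 2 libraries a group, p-values rest on the pooled spread. Alternatives were TMM factors, bin coverage, DESeq2 1.42.0, other filters and windows, and leaving out each library. 1 B cell marker gene is not reported here.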

Additional observations from a re-analysis of the deposited data

Results flagged for a closer look

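At 3 places the change from 10 h differed between imminent division and pre-S, by the test of imminent division against pre-S itself, and all 3 were at Cd69. The difference in insulation score was 0.21, that in the bin pair 150 kb away was 0.52 and that in the bin pair 200 kb away was 0.48, each with both imminent division libraries above both pre-S libraries. With the bin coverage in the offsets 3 bin pairs of Cd69 were weaker and none stronger in this comparison, and the share of all bin pairs is not given. With the replicate block none of the 3 passed, and the insulation call was also lost without any one of the 10 h and 33 h libraries. Strain and gate differed with the group, and their part was not tested.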

How the results depend on the processing

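Over 23 alternatives, the 52 results called at single genes kept their direction and call in 567 cases, lost the call in 107 and turned in 12. The changes of Cd83 in far contacts and boundary ratio at both 33 h groups, of Icam1 in far contacts at imminent division, and the insulation falls of Cd80, Icosl, Icam1 and Il2ra held under every alternative run. The cause of the differences below was not tested. Comparisons are taken in the order 10 h versus 3 h, then each 33 h group (imminent division first) against 10 h, and last the 33 h groups against each other. Counts are of the 10 genes, or of their bin pairs for differential interactions. The share of all features called under each alternative is not given, so these counts cannot be set against the genome.

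With TMM factors there were 54 differential interactions at imminent division, 28 at pre-S and 1 in the last comparison, with 8 genes called for near contacts at imminent division and 7 at pre-S, all lower, 5 for far contacts at pre-S, 1 at 10 h, and 5 for summed contacts at pre-S. Fas then had -0.0080 and Cd69 -0.030 in summed contacts, and Cd69 -0.067 in near contacts, at imminent division. With DESeq2 there were 4 differential interactions at imminent division, 0 at pre-S and 0 in the last comparison, with far contacts called at 1 gene at 10 h and 2 at imminent division, near contacts at 3 at imminent division, and summed contacts at 1 at 10 h.

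With the bin coverage in the offsets there were 5 differential interactions at 10 h, 2 at pre-S and 8 between the 33 h groups, those 8 all weaker. Far contacts were called at 6 genes at 10 h, 2 at imminent division and 1 between the 33 h groups, near contacts at 1, 3 and 1, with 2 at pre-S, and summed contacts at 1 at 10 h and 3 at imminent division. Icam1 then had 0.0055 in summed and Cd40 0.020 in near contacts at imminent division. With offsets per distance class the comparisons, in order, had 1, 11, 5 and 0 differential interactions. Over 8-fold the background there were 1 at 10 h and 20 at pre-S, and without the abundance filter 1 between the 33 h groups.

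With the study's interaction filter far contacts were called at 1 gene in each of the first 3 comparisons, near contacts at 0 at imminent division and 0 at pre-S, and summed contacts at 2 at 10 h and 1 at imminent division, with Cd69 at -0.0058. Over all autosomal bins there were 1 for far contacts at 10 h and 2 for summed contacts at pre-S. With the diagonal count there were 1 for far contacts at 10 h, 2 for near and 2 for summed contacts at pre-S.

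In 250 kb bins the compartment was called at 2 genes at 10 h, 5 at pre-S and 2 in the last comparison, with Cd69 at -0.015 at imminent division. Insulation between the 33 h groups was called at 0 genes with 1 Mb on each side and at 5 with quantile normalization, under which Cd86 had 0.13, Cd83 0.024 and Cd44 0.17 at imminent division and Cd44 0.015 at pre-S. Less the mean within 1 Mb, chosen after seeing the data, it was called at 1 gene at 10 h and 5 between the 33 h groups, with Cd83 at 0.057 at imminent division. With no fold threshold the boundary ratio was called at 4 genes at 10 h and 2 between the 33 h groups.

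Replicate numbers did not pair the libraries (correlations of deviations from -0.75 to 0.25). With the replicate number as a block there were 5 differential interactions at pre-S and 0 between the 33 h groups, and 0 insulation calls between the 33 h groups. At imminent division the block also ended the calls of Cd83 in compartment (limma, adjusted p = 0.0537) and of Cd86 in near contacts (edgeR, 0.0513) and insulation (limma, 0.0567).

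Leaving out each library in turn gave, in order, 0 to 1, 5 to 32, 0 to 15 and 0 to 3 differential interactions. It gave 0 to 1, 2 to 6 and 1 to 2 genes for summed contacts in the first 3, and 2 to 6, 1 to 2 and 0 to 1 for near contacts in the last 3. For far contacts it gave 0 to 5, 2 to 4 and 1 to 4 in the first 3. It gave 0 to 1, 1 to 5, 2 to 3 and 0 to 2 for the compartment, 0 to 2, 5 to 10, 8 to 9 and 0 to 2 for insulation, and 0 to 1, 3 to 3, 1 to 1 and 0 to 2 for the boundary ratio. The counts of differential interactions were lowest without the second 10 h library at imminent division (5) and without the first at pre-S (0). With 2 libraries a group, changes in bin pairs of few read pairs, large ones among them, could have been missed at this depth.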
